A study of Rattus norvegicus with 4 samples.

Results

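The sarcomeric Z-disc was described here through 10 genes chosen by name, Actn2, Ttn, Ldb3, Myoz2, Tcap, Csrp3, Nexn, Pdlim5, Synpo2l and Nebl. They were chosen with earlier results of these data known. Of the 10 genes, 8 were matched by symbol among the 15731 genes of the table, and each of the 8 had an RPKM above 1.0 in every library. Ttn, the gene of titin, and Nebl, the gene of nebulette, were not analysed here, so no value below is about titin RNA. RPKM is a read count divided by the length of the gene in kilobases and by the size of the library, so that levels can be compared between genes as well as between libraries.

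The cells were ventricular cardiomyocytes of wild type Wistar rats, whose age the labels give both as postnatal day 1 and as day 0, cultured and transfected with 1 of 3 mimics, that of hsa-miR-106b-5p, that of hsa-miR-93-5p or that of hsa-miR-25-3p, or with cel-miR-67, a worm miRNA that served as control. Non-myocytes were reduced by pre-plating, and the cultures were not pure. A mimic is a synthetic double-stranded RNA that acts as the mature miRNA. Total RNA was taken 72 h after transfection, and the labels give the mimic concentration both as 25 nM and as 25 mM. Each of the 4 conditions gave 1 library, so no difference below has a replicate check, no p-value is given, and all 3 comparisons with cel-miR-67 use the same control library.

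The Z-disc borders each sarcomere and anchors actin filaments of opposite polarity, which alpha-actinin cross-links, and the ends of titin, which telethonin caps. Around this core sit PDZ-LIM proteins, calsarcins and muscle LIM protein, which tie the lattice to signalling enzymes such as calcineurin and protein kinase C. In heart muscle, mutations in several of these genes are known causes of cardiomyopathy. A miRNA lowers its target RNAs by pairing mainly through its seed, bases 2 to 8 from its 5′ end.

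The mature rat sequences from RefSeq (GRCr8) are shown because the seed divides the mimics, with the seed in capitals. The mimics carry the human names, and the human sequences were not compared here.
rno-miR-106b-5p: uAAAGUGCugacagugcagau
rno-miR-93-5p: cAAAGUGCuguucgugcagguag
rno-miR-25-3p: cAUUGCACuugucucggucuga
The genes lie on the minus strand of rat chromosome 12, with the mature sequences at chr12:22157103-22157123, chr12:22156894-22156916 and chr12:22156652-22156673. The seeds of miR-106b and miR-93 are identical, and the seed of miR-25 is a different one. Whether the Z-disc transcripts carry matches to these seeds was not analysed here.

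Reads on listed genes numbered between 15175185 with cel-miR-67 and 18797234 with miR-106b, recovered from the RPKM values as whole numbers. All 15 cardiomyocyte markers looked up had RPKM above 1.0 in every library, with a summed RPKM of 25322 in the control and 14353 (miR-25), 17699 (miR-93) and 22524 (miR-106b) after transfection of the mimics. Markers of other cell types were read as well. The 12 fibroblast markers summed to between 1039 and 1503 RPKM and the 10 smooth muscle and pericyte markers to between 698 and 2240. The 9 endothelial markers summed to at most 12.97 and 10 macrophage markers to at most 22.3. In the control, Vim at 587 was the largest part of the fibroblast sum and Tagln at 478 of the smooth muscle sum, while Myh11 had 13.8. Which cells this signal came from was not tested. No gene of these marker lists was at 0 in any library. In such cultures, fewer cells of a type and less RNA per cell cannot be told apart.

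In the control library the 8 Z-disc genes spanned a wide range of levels. Csrp3 was the highest at 437 RPKM, followed by Pdlim5 at 311, Myoz2 at 238, Actn2 at 230.1, Nexn at 89.1, Tcap at 60.4, Ldb3 at 32.8 and Synpo2l at 15.8. Only Myoz2 and Actn2 had counting intervals that overlapped, so every other neighbouring pair in this order differed by more than counting error. The order also rests on the gene lengths behind RPKM, which were not checked. Tcap stood above Ldb3 with 661 reads against 8694. The order differed in each of the other libraries: with miR-106b, where Pdlim5 lay below Myoz2 and Actn2, with miR-93, where Actn2 led and its interval overlapped that of Csrp3, and with miR-25, where Pdlim5 led. Together the 8 genes held 0.427% of listed reads with cel-miR-67, and 0.268% (miR-93), 0.346% (miR-25) and 0.363% (miR-106b) in the others.

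**Figure D1:**
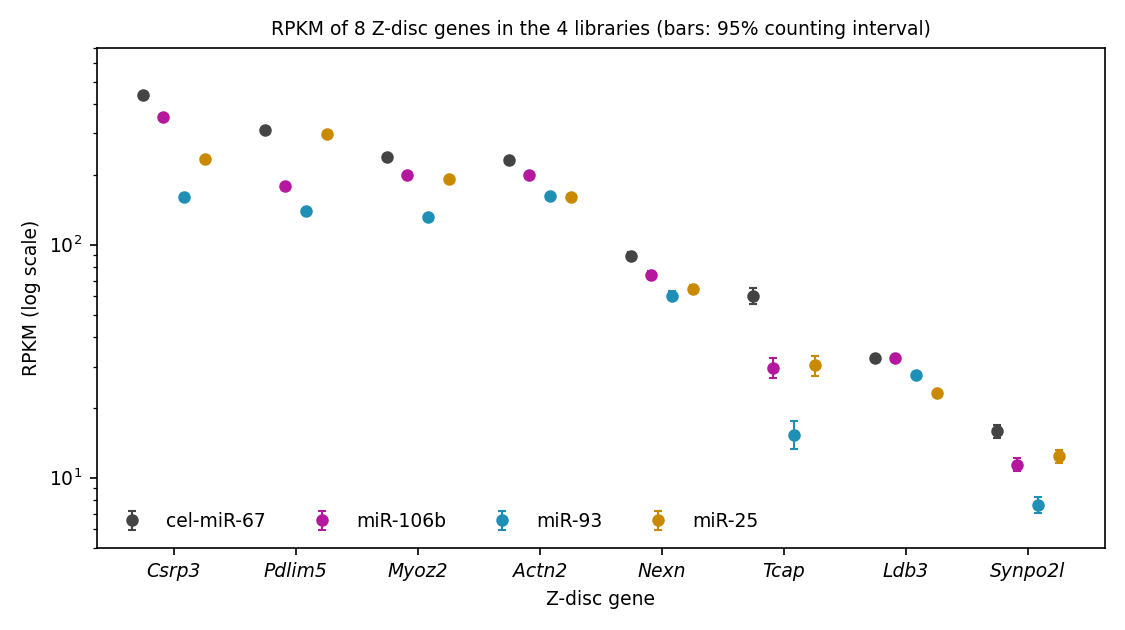
RPKM of the 8 Z-disc genes (log scale) in the 4 libraries, with 1 point for each library and bars for the 95% exact counting interval, which is often smaller than the point. Csrp3 runs from 437 with cel-miR-67 down to 161 with miR-93, whereas Ldb3 stays between 23.1 and 32.8.

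Actn2 encodes sarcomeric alpha-actinin, the cross-linker that defines the Z-disc. Its RPKM was 230.1 with cel-miR-67, then 199 (miR-106b), 162 (miR-93) and 159 (miR-25), from 12939 to 17672 reads. The control was highest, and the miR-93 and miR-25 libraries lay side by side at the bottom. The log2 ratio of miR-25 over cel-miR-67 was -0.53 (95% exact interval -0.56 to -0.50), that of miR-93 was -0.51 (-0.54 to -0.48) and that of miR-106b was -0.21 (-0.24 to -0.18). These are Clopper-Pearson intervals from the recovered reads. They cover counting error only, since cultures were not repeated and PCR copies were not marked. Past the 1.3-fold cutoff, a log2 ratio of 0.38 in either direction, Actn2 was lower with miR-93 and miR-25 but not with miR-106b.

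Nexn encodes nexilin, an actin-binding protein that is concentrated at the Z-disc. It followed Actn2 closely, with 89.1 RPKM in the control library, 60.4 after miR-93, 64.6 after miR-25 and 74.0 after miR-106b. Its log2 ratio was -0.56 for miR-93 (-0.65 to -0.47), -0.46 for miR-25 (-0.55 to -0.38) and -0.27 for miR-106b (-0.35 to -0.19). Nexn was thus lower past the cutoff with miR-93 and miR-25, and with miR-25 the upper end of the interval lay at the cutoff itself.

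Ldb3 and Pdlim5 are the PDZ-LIM genes of the set. Ldb3 encodes cypher, also called ZASP, which holds alpha-actinin through its PDZ domain and binds protein kinase C through its LIM domains, and Pdlim5 encodes ENH, a relative with the same partners. Both genes are known to be spliced into long and short forms, which the gene-level values combine. Ldb3 had 32.8 RPKM in the control library, 32.7 after miR-106b, 27.5 after miR-93 and 23.1 after miR-25. Its range from highest to lowest library, 1.42-fold, was the smallest of the members. Those of Actn2 and Nexn, 1.44-fold and 1.48-fold, are not told apart from it by counting error. No difference of Ldb3 between miR-106b and control was detectable, at a log2 ratio of -0.0022 (-0.04 to 0.04). The log2 ratio was -0.25 with miR-93 (-0.29 to -0.21), within the cutoff, and -0.50 with miR-25 (-0.55 to -0.46), past it.

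Pdlim5 differed from Ldb3 in the place of miR-25. It had 311 RPKM in the control library, 297 after miR-25, 179 after miR-106b and 139 after miR-93, so the libraries of the 2 mimics that share a seed were low and the miR-25 library was close to control. The log2 ratio was -0.80 with miR-106b (-0.83 to -0.76) and -1.16 with miR-93 (-1.20 to -1.12), both past the cutoff. With miR-25 it was -0.06 (-0.10 to -0.03), which exceeds counting error but stays far within the cutoff. Of all genes tested, 2.62% had a lower ratio than Pdlim5 for miR-106b, 1.85% for miR-93 and 45.1% for miR-25.

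Myoz2 encodes calsarcin-1, which links calcineurin to alpha-actinin and restrains it. Its RPKM was 238 in the control library, 199.98 after miR-106b, 191 after miR-25 and 132 after miR-93. The miR-93 library stood well below the rest. The log2 ratio was -0.85 with miR-93 (-0.90 to -0.80), past the cutoff, and -0.25 with miR-106b (-0.29 to -0.21) and -0.32 with miR-25 (-0.36 to -0.27), both within it.

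Csrp3 encodes muscle LIM protein, a stretch-linked adaptor of the Z-disc that also enters the nucleus. It was the most abundant member in the control library, at 437 RPKM, followed by 352 after miR-106b, 233 after miR-25 and 161 after miR-93, from 6245 to 14911 reads. Here all 4 libraries stood apart from each other. The log2 ratio of Csrp3 was past the cutoff with miR-93, at -1.44 (-1.49 to -1.40), and with miR-25, at -0.91 (-0.95 to -0.87), and within it with miR-106b, at -0.31 (-0.35 to -0.28). With miR-93, 1.03% of all tested genes had a lower ratio.

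Tcap encodes telethonin, the cap that joins the ends of 2 titin molecules in the Z-disc. It showed the widest range of the members, 3.94-fold, with 60.4 RPKM in the control library, 30.3 after miR-25, 29.6 after miR-106b and 15.3 after miR-93. Tcap rested on the fewest reads, 661 in the control library and 399 (miR-25), 426 (miR-106b) and 202 (miR-93) in the others. It was lower past the cutoff in each comparison, with a log2 ratio of -1.98 for miR-93 (-2.21 to -1.75), -1.03 for miR-106b (-1.20 to -0.85) and -0.99 for miR-25 (-1.18 to -0.81). At this depth the miR-93 ratio was below the miR-106b ratio by more than counting error.

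Synpo2l, a relative of synaptopodin that encodes the cytoskeletal heart protein CHAP, was the scarcest member. Its RPKM was 15.8 in the control library, 12.3 after miR-25, 11.4 after miR-106b and 7.67 after miR-93, from 615 to 1052 reads. The log2 ratio of Synpo2l was -1.04 for miR-93 (-1.19 to -0.90), -0.47 for miR-106b (-0.60 to -0.35) and -0.36 for miR-25 (-0.48 to -0.23). Synpo2l was past the cutoff with miR-106b and miR-93 and just within it with miR-25. For miR-106b and miR-25 the interval spans the cutoff, so counting error alone could place either call on the other side.

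Taking each comparison by itself, miR-106b had 3 of 8 genes lower past 1.3-fold, Tcap, Pdlim5 and Synpo2l, and none higher. Among all 11296 genes tested for that mimic, 12.7% were lower and 11.9% higher by the same rule. The median log2 ratio of the 8 genes was -0.29, where the median of all tested genes was -0.0033. With miR-93, 7 of 8 were lower, all except Ldb3, and none higher, where 15.6% of 11280 tested genes were lower and 15.1% higher, and the median of the 8 genes was -0.95, or a ratio of 0.519. With miR-25, 5 of 8 were lower, Actn2, Nexn, Ldb3, Csrp3 and Tcap, and none higher, where 22.6% of 11198 tested genes were lower and 19.3% higher, and the median was -0.48. All 8 ratios were below 1 in each comparison, while between 50.2% and 51.0% of all tested genes were. Since the genes were chosen with earlier results of these data known, these counts are a description and not an independent test.

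The count for miR-25 depends on the scaling. The library sizes behind the deposited values were 1.31 times (miR-106b), 1.205 times (miR-93) and 1.202 times (miR-25) that of the control, whereas the reads on listed genes were 1.24, 1.09 and 1.08 times those of the control in the same order. With sizes taken from these reads, which moved the median of all tested genes to 0.14 with miR-25, 3 of 8 genes were lower past the cutoff, Tcap, Csrp3 and Actn2, and with all libraries brought to a common RPKM sum, which moved it to 0.22, 2 were, Tcap and Csrp3. Both scalings placed Pdlim5 above control with miR-25 and Ldb3 above control with miR-106b, each within the cutoff. For miR-93, where both moved the median of all genes to 0.14, 6 genes were lower past the cutoff, without Actn2, and for miR-106b 3 were. Shares of all tested genes past the cutoff were not counted under these scalings. The rescaled counts thus cannot be set against all genes.

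**Figure D2:**
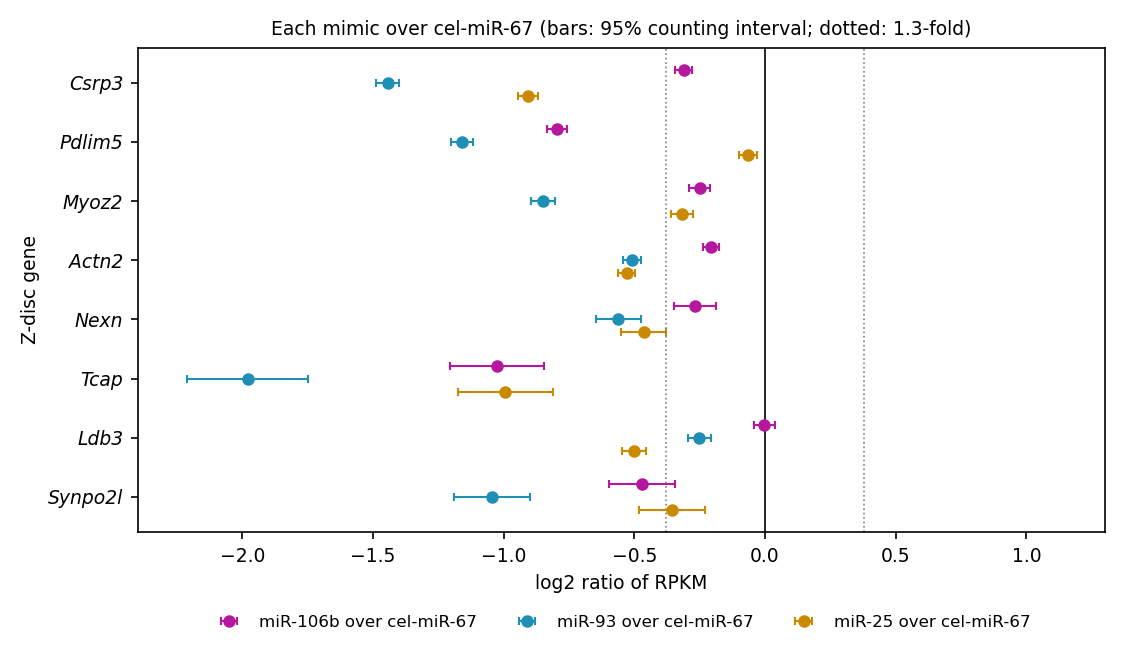
Log2 ratio of RPKM, each mimic over cel-miR-67, for the 8 Z-disc genes, with bars for the 95% exact counting interval and dotted lines at 1.3-fold. The miR-93 points reach from -0.25 for Ldb3 to -1.98 for Tcap, and the miR-25 point of Pdlim5 sits at -0.06.

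Ratios of one mimic to another leave the control library out. In miR-93 over miR-106b, the pair with a common seed, 4 of 8 genes were lower past 1.3-fold and none higher, where 8.21% of 11391 tested genes were lower and 7.30% higher. The genes were Csrp3 at a log2 ratio of -1.13 (-1.18 to -1.09), Tcap at -0.95 (-1.20 to -0.71), Myoz2 at -0.60 (-0.65 to -0.55) and Synpo2l at -0.57 (-0.72 to -0.42). For the other four, Actn2, Ldb3, Nexn and Pdlim5, the ratio lay between -0.36 and -0.25 with intervals below 0. The median was -0.47, so the miR-93 library was lower than that of its seed partner for all 8 genes. Csrp3 and Tcap cannot be ranked here, since the interval of Tcap holds the value of Csrp3.

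The miR-25 library was also compared with each of the other mimics. In miR-25 over miR-93, 5 of 8 genes were higher and none lower, where 22.1% of tested genes were higher and 23.0% lower. These were Pdlim5 at 1.10 (1.06 to 1.14), Tcap at 0.99 (0.74 to 1.24), Synpo2l at 0.69 (0.54 to 0.83), Csrp3 at 0.54 (0.49 to 0.58) and Myoz2 at 0.53 (0.49 to 0.58). For Actn2 the ratio was -0.02 (-0.06 to 0.01), so no difference was detectable, and Ldb3 stood at -0.25 (-0.30 to -0.21). In miR-25 over miR-106b, 1 gene was higher, Pdlim5 at 0.73 (0.70 to 0.77), and 2 were lower, Csrp3 at -0.60 (-0.63 to -0.56) and Ldb3 at -0.50 (-0.54 to -0.46), where 22.1% of 11183 tested genes were higher and 23.0% lower. Both counts against miR-106b lie near or below the shares of all tested genes, so they show nothing particular to the 8 genes. The intervals of Tcap and Synpo2l include 0 in miR-25 over miR-106b. These direct ratios share libraries with each other and with the comparisons above.

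**Figure D3:**
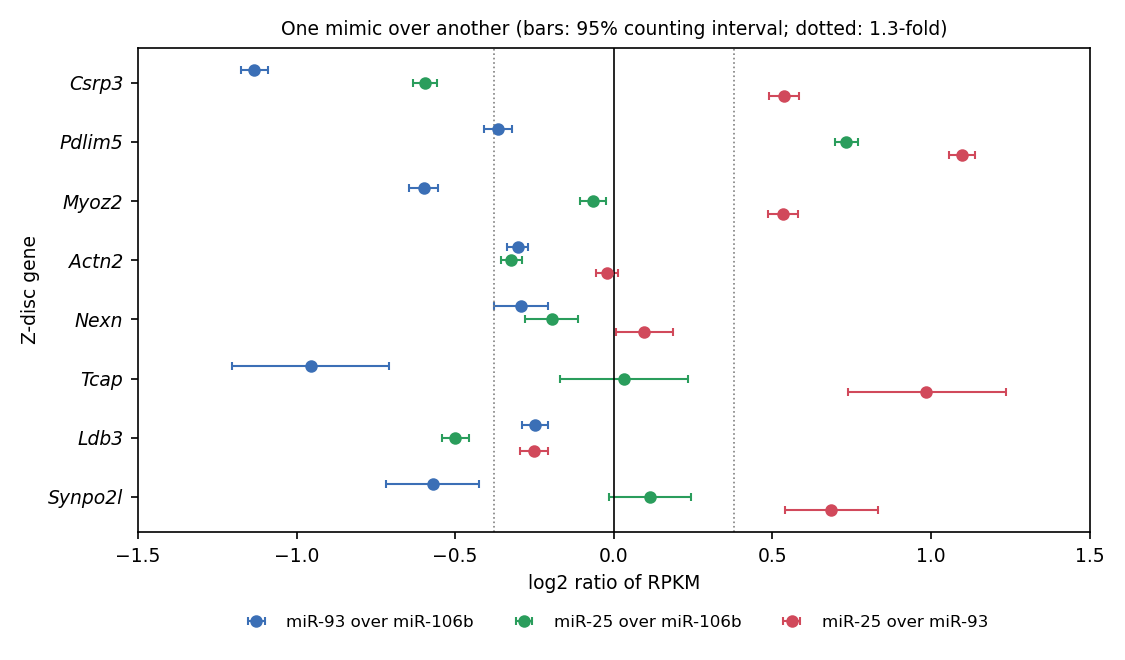
Log2 ratio of RPKM between 2 mimics for the 8 Z-disc genes, with bars for the 95% exact counting interval and dotted lines at 1.3-fold. Pdlim5 is at 1.10 in miR-25 over miR-93 and at 0.73 in miR-25 over miR-106b, while Csrp3 is at -1.13 in miR-93 over miR-106b.

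Expressed relative to Actn2, where the library size cancels, the make-up of the Z-disc RNA differed between libraries. Pdlim5 stood at 135% of the Actn2 RPKM with cel-miR-67, 187% after miR-25, 89.7% after miR-106b and 86.0% after miR-93. Csrp3 was at 190.1% of Actn2 with cel-miR-67, at 177% after miR-106b, at 146% after miR-25 and at 99.4% after miR-93. Tcap was at 26.2% with cel-miR-67 and ranged from 9.47% to 19.0% after the mimics. Nexn, in contrast, kept a share between 37.1% and 40.5% of Actn2 in all 4 libraries, and Ldb3 one between 14.2% and 17.03%. The ratios of Nexn and Ldb3 to Actn2 thus varied less over the 4 libraries than those of Pdlim5, Csrp3 and Tcap.

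Promoter sequence was looked up for the 6 of these 8 genes that RefSeq's promoter table holds, from 250 bases before the start to 50 after it. The motifs searched on both strands were the MEF2 and CArG boxes, by name, the M-CAT element (CATTCC), the TATA box (letters TATAAA) and the E-box (letters CANNTG). MEF2 was matched in 1 of 6 members, Myoz2, and in 0.565% of all 33469 promoters of the table. A CArG box, the site type of serum response factor, was matched in 1, Ldb3, and in 1.64% of all promoters. M-CAT was matched in 1, Nexn, and in 14.2% of all promoters, the E-box in 5 and in 72.1%, and the TATA box in 0 and in 14.2%. The Myoz2 and Ldb3 windows are shown because they hold the rarer motifs, in capitals. A link between motifs and ratios was not tested.
Myoz2 promoter: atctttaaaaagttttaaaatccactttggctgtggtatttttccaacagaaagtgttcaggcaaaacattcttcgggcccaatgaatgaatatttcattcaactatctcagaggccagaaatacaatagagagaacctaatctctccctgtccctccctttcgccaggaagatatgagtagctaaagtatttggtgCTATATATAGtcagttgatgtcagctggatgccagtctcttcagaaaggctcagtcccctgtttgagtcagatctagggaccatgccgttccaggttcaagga
Ldb3 promoter: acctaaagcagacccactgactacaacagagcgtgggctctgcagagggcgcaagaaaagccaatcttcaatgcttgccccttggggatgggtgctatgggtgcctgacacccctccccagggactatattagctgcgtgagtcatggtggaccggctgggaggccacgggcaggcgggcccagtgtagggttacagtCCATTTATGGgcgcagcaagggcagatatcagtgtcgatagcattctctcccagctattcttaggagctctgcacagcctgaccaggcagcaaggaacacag
Both are on the minus strand of GRCr8, at chr2:213852729-213853028 and chr16:9924630-9924929. The MEF2 match of Myoz2 covers -53 to -44 from the start and the CArG match of Ldb3 -52 to -43, neither overlapping another motif searched. A match is a description of letters and not evidence of binding.

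Other structural genes of the Z-disc were taken from a list of 23, of which 22 were found once and 18 were tested. With miR-93, 12 of 18 were lower and 1 higher, with a median log2 ratio of -0.80, and with miR-106b 6 were lower and 1 higher, with a median of -0.20. With miR-25, 5 were lower and 5 higher, with a median of 0.10. Among all tested genes, as above, 15.6% were lower and 15.1% higher with miR-93, and 12.7% lower and 11.9% higher with miR-106b. With miR-25, 22.6% were lower and 19.3% higher, so the miR-25 counts lie near those of all genes. Xirp2, which encodes the actin-binding repeat protein xin beta, had 63.0 RPKM in the control library, 48.7 after miR-25, 20.6 after miR-106b and 2.82 after miR-93, a log2 ratio of -4.48 for miR-93 (-4.58 to -4.38). The miR-93 library held by far the least Xirp2 RNA. The miR-25 library was just within the cutoff of control, at -0.37 (-0.40 to -0.34), an interval that spans the cutoff.

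Synpo2, the relative of Synpo2l that encodes myopodin, fell by 0.96 on the log2 scale with miR-106b and by 1.67 with miR-93. Palld, the gene of the actin-bundling protein palladin, was the one that rose with miR-106b and with miR-93, by 0.50 and 0.79. Its interval with miR-106b, 0.33 to 0.67, spans the cutoff. With miR-25 the largest rises were Pdlim7 (ENIGMA), from 40.3 to 79.7 RPKM, and Actn1, the non-muscle alpha-actinin gene, from 40.5 to 65.4, and the largest falls Mypn (myopalladin), from 4.74 to 1.74, and Xirp1, from 77.0 to 50.3. The most abundant genes of the list in the control library were Cryab, the small heat shock protein of muscle, at 880 RPKM, and Des, the intermediate filament desmin, at 641. Des was lower past the cutoff with miR-106b and miR-93, at -0.48 and -0.84, and higher with miR-25, at 0.42.

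Among 19 genes of titin- and myofibril-linked signalling and upkeep, 16 were tested. Of these, 6 were lower and 2 higher with miR-106b, 6 lower and 3 higher with miR-93, and 10 lower and none higher with miR-25, with medians of -0.11, -0.21 and -0.54. The counts of higher genes lie near the shares of all tested genes for miR-106b and miR-93, 11.9% and 15.1%, and the counts of lower genes stand beside shares of 12.7%, 15.6% and 22.6%. Ankrd1, the stretch-responsive ankyrin repeat protein that binds titin, had 2753 RPKM in the control library, 1976 after miR-25, 1736 after miR-106b and 871 after miR-93. Fhl1, a LIM protein that binds titin, had 259, 263, 163 and 47.3 in the same order. Both genes thus were lowest with miR-93. Fhl2, the close relative of Fhl1, went the other way with miR-106b and miR-93, from 215 RPKM in the control library to 308 and 343. With miR-25 it fell to 81.4, and it was past the cutoff each time. Smyd1, a muscle methyltransferase needed for myofibril assembly, had the lowest ratio of the list with miR-25, where it fell by 1.72 on the log2 scale.

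Of the calcineurin and protein kinase C genes, 12 of 15 were tested. With miR-106b and with miR-93, 1 gene was lower and 1 higher, and with miR-25 2 were lower and 2 higher. These counts are near or below the shares of all tested genes, which were 11.9% to 19.3% for higher and 12.7% to 22.6% for lower, so they show nothing particular to the list. Rcan1, a calcineurin inhibitor whose RNA is known to be induced by calcineurin, had 158 RPKM in the control library, 122 after miR-25, 75.8 after miR-106b and 31.4 after miR-93. Its log2 ratio was -2.33 for miR-93 (-2.403 to -2.255) and -1.06 for miR-106b (-1.108 to -1.004), while with miR-25 it was just within the cutoff at -0.37 (-0.42 to -0.33). Ppp3ca, a catalytic subunit of calcineurin, rose past the cutoff with miR-25, at 0.44 (0.34 to 0.53), and was at -0.19 with miR-93 and 0.06 with miR-106b. For Rcan1 and Ppp3ca the miR-25 interval spans the cutoff, so counting error alone could place either call on the other side.

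Marker genes of cell types that such cultures can hold differed between libraries as well. Of the 15 cardiomyocyte markers, 4 were lower and 1 higher with miR-106b, 4 lower and 3 higher with miR-93, and 14 lower and none higher with miR-25, with medians of -0.06, -0.21 and -1.07, where the shares of all tested genes that were lower are again 12.7%, 15.6% and 22.6%. The counts of higher cardiomyocyte markers lie near or below the shares of all tested genes that were higher, 11.9%, 15.1% and 19.3%. The Z-disc genes had a lower median than these markers with miR-93 and a higher one with miR-25. Of the smooth muscle and pericyte markers, 6 of 10 were higher with miR-25 and 2 lower, with a median of 0.74, beside shares of 19.3% and 22.6% of all tested genes. The count of lower markers thus lies near that of all genes. Tagln rose from 478 to 1306 RPKM with miR-25 and Acta2 from 164 to 440.2. Fibroblast markers had medians of -0.35, -0.12 and -0.57 over 12 genes, endothelial markers of -0.33, -0.30 and -0.67 over 4, and macrophage markers of 0.06 and 0.20 over 6 genes with miR-106b and miR-93 and of -0.85 over 5 with miR-25. The part of the cell make-up in the values of the Z-disc genes was not tested.

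**Figure D4:**
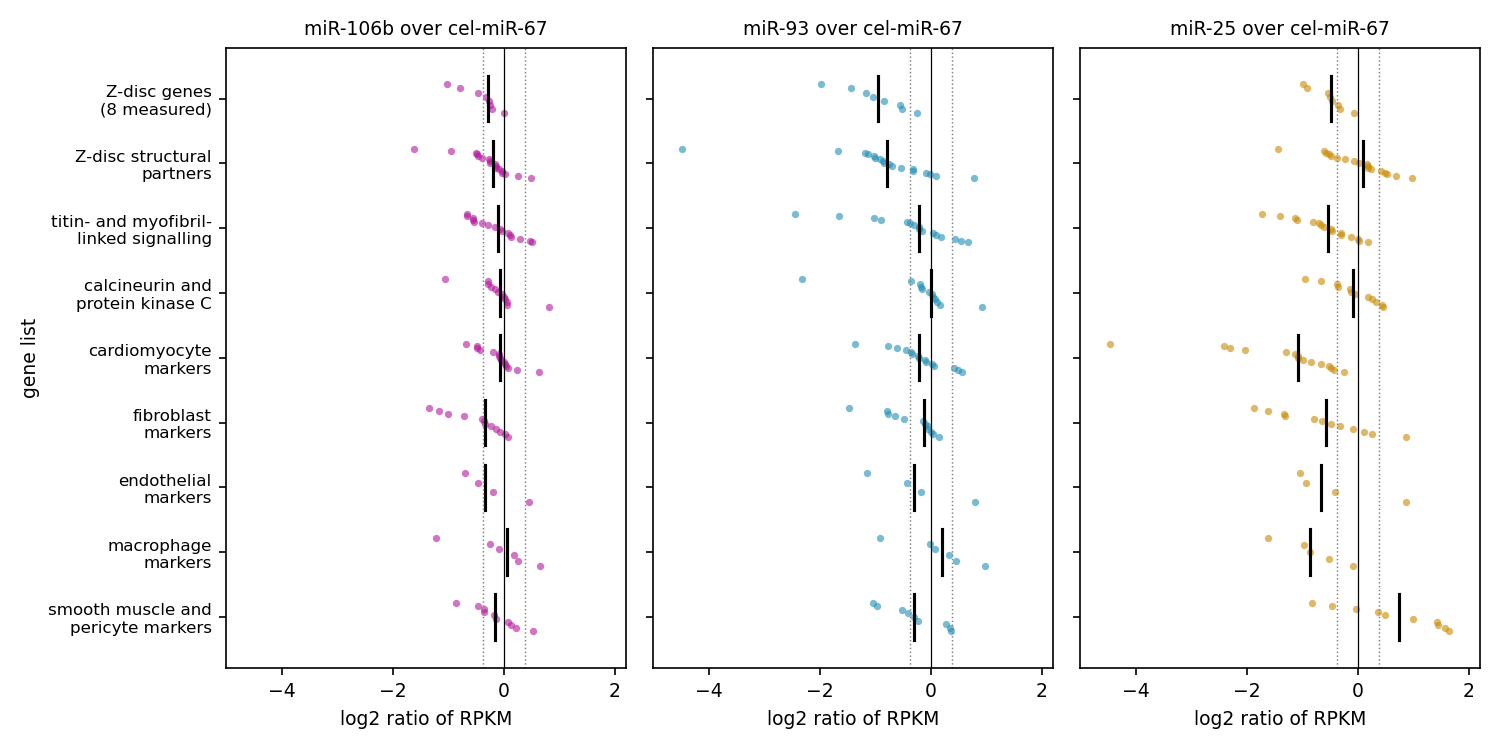
Log2 ratio of RPKM over cel-miR-67 for the tested genes of each list, with 1 panel for each mimic, 1 point for each gene, a black bar at the median of the list and dotted lines at 1.3-fold. The Z-disc genes have medians of -0.29, -0.95 and -0.48, and cardiomyocyte markers of -0.06, -0.21 and -1.07.

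The pattern over libraries was compared with that of the median Z-disc gene for 4045 genes with RPKM above 10 in all 4 libraries, members included. With the members left out of the order, the most alike was Ehbp1l1, followed by Med21, Klhl41, Bok and Rnf115. Likeness was the root mean square difference of 4 centred log2 RPKM values, which was 0.05 for Ehbp1l1 and 0.08 for Rnf115, and it describes 4 libraries only. Ehbp1l1 had 54.5 RPKM in the control library, 39.7 after miR-25, 41.97 after miR-106b and 26.4 after miR-93. Klhl41, which encodes a kelch protein of the muscle sarcomere, had 53.4, 41.2, 44.1 and 31.6 in the same order. Of the members past that cutoff, all except Synpo2l, Myoz2 was nearest to the median pattern, at 0.06, and Tcap farthest, at 0.37.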

How the data were processed

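RNA of 4 neonatal rat cardiomyocyte cultures, 1 for each mimic, was sequenced. As the methods and the submitters' processing notes give it, the authors trimmed adaptors with Cutadapt, aligned reads to Rnor 6.0 with STAR 2.7, and converted rounded gene counts with edgeR to the deposited RPKM values. The program that counted reads is not given in the sources used here.

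The table of the whole series and the 4 sample tables held identical values. Reads were recovered since a gene's RPKM values differ between libraries only by whole read numbers once the relative library sizes are known. All 15731 genes gave whole gene lengths to within 0.001, and for 654 a common factor was multiplied back. A common factor that remains unseen would make intervals too wide. The recovered library sizes were not whole numbers of reads. The recovery and the intervals were tested on simulated data.

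Genes with RPKM above 1.0 in both libraries were tested, and a ratio of RPKM past 1.3-fold in either direction was called, without a pseudocount. The cutoffs follow the study's results text, whereas its methods give an RPKM of 2.0. Ratios carry 95% exact Clopper-Pearson intervals and levels exact Poisson intervals, for counting error only.

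The 10 genes, the 8 other lists, the cutoffs and the motifs were chosen with earlier results of these data known. From the lists of Z-disc partners, signalling genes and calcineurin genes, the text names genes among the 2 largest rises and 2 largest falls past 1.3-fold in each comparison and the 2 with the highest control RPKM, and from the marker lists a few of these. It also names the 5 genes nearest in pattern, members left out. Symbols listed more than once, 176 in number, were left out of the lists. Alternatives were RPKM cutoffs of 2.0 and none, pseudocounts of 0.1 and 1, 4 other scalings, and fold cutoffs of 1.5 and 1.2; for the ratios between mimics, 3 scalings and these fold cutoffs were added after seeing the data. The scripts ran on Python 3.11.15 with matplotlib 3.10.9, pandas 2.3.3, numpy 2.4.6 and scipy 1.17.1.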

Additional observations from a re-analysis of the deposited data

How the results depend on the processing

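With 1 library for each mimic no replicate could be left out, and the spread between cultures is not known. No paired analysis was possible because each group holds 1 library. All 8 genes are above 2.0 RPKM, so the choice of RPKM cutoff could not change their ratios. A pseudocount of 0.1 changed no count of members and moved no median by over 0.01. A pseudocount of 1 RPKM gave a median log2 ratio of -0.90 with miR-93. With library sizes from the reads on listed genes, the medians over cel-miR-67 were -0.335 for miR-25, where 3 genes were lower, -0.80 for miR-93 and -0.21 for miR-106b. Without mitochondrial genes and the 10 genes with most reads in each library, they were -0.39, -0.83 and -0.23 in that order. With a common sum of RPKM they were -0.80 with miR-93 and -0.25 with miR-25, where 2 genes were lower. At a fold cutoff of 1.2, 7 genes were lower for miR-25, 7 for miR-93 and 5 for miR-106b, and at 1.5 these counts were 2, 5 and 2. Shares of all tested genes were not counted at these cutoffs or under the other scalings. These counts thus cannot show whether the 8 genes stood out from all genes.

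For the ratios between mimics, a common sum of RPKM gave medians of -0.36 in miR-93 over miR-106b and 0.63 in miR-25 over miR-93, and turned the median of miR-25 over miR-106b from -0.13 to 0.072, with 1 gene lower. Sizes from listed reads gave -0.40 in miR-93 over miR-106b and -0.066 in miR-25 over miR-106b. At 1.2-fold, 7 genes were lower in miR-93 over miR-106b. At 1.5-fold, 1 gene was lower in miR-25 over miR-106b and 3 were higher in miR-25 over miR-93. Here too, shares of all tested genes were not counted under these settings. Single-gene ratios under the settings that could change them were set against the mean distance from the ratio to the ends of its counting interval. Of these ratios, 132 moved by less than that distance and 84 by more, and none past the cutoff changed its direction.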
